A study of Mus musculus with 8 samples.

Results

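Txnip, its relatives Arrdc1, Arrdc2, Arrdc3 and Arrdc4, and the thioredoxin genes Txn1, Txn2 and Txnrd1 were followed in isolated mouse islets after culture in high or low glucose. These 8 genes were chosen by name from the 27534 genes of the deposited table. All 8 were found and all 8 passed the filter on low counts. The islets came from C57BL/6J mice and were kept for 72 h in RPMI medium with serum, either at 20 mM glucose (high glucose, 4 libraries) or at 7.5 mM glucose (low glucose, 4 libraries). Apart from the glucose concentration the labels give no difference between the groups. Neither the number nor the age of the animals behind a library is stated in the labels, so p-values measure the spread between these samples, which may be technical.

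Thioredoxin is a small protein that reduces disulfide bonds in other proteins and is itself returned to its reduced form by thioredoxin reductase with NADPH. TXNIP binds reduced thioredoxin and inhibits it, and like the ARRDC proteins it is an α-arrestin, a scaffold that links membrane proteins such as glucose transporters to ubiquitin ligases and endocytosis. In β cells Txnip is known as one of the most glucose-responsive genes, switched on by the sugar-sensing factors ChREBP and MondoA with their partner MLX, and an excess of TXNIP is known to promote β-cell death.

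Sequencing depth was 20516328 to 24905499 counts at 20 mM and 19543045 to 24949515 at 7.5 mM glucose. Of cell type markers, 8 β-cell markers, the insulin genes among them, made up 20.4% to 25.4% of all counts at 20 mM glucose. Their share at 7.5 mM glucose was 19.4% to 25.4%. Of these 8, 1 rose and 3 fell, while Ins1 (edgeR adjusted p = 0.200) and Ins2 (0.802) did not pass. Of all genes tested, 13.1% rose and 11.9% fell. The 6 α-cell markers, of which Ttr rose, made up 1.21% to 2.36% at 20 mM and 1.503% to 2.81% at 7.5 mM, and the 3 δ-cell markers, none of which passed, 0.241% to 0.391% and 0.166% to 0.294%. The PP-cell marker, which did not pass, made up 0.169% to 0.242% and 0.206% to 0.389%. In the 4 same-number pairs, the share was higher at 20 mM in 4 for β- and δ-cell markers and in 1 for α- and PP-cell markers. For β-cell markers the pair of replicates 2 was nearly level, at 25.41% in high and 25.39% in low glucose. Markers of acinar cells, the enzyme-secreting cells around islets, made up 0.345% to 1.96% at 20 mM and 0.137% to 1.18% at 7.5 mM glucose, more at 20 mM in each of the 4 same-number pairs. Of 12 acinar markers tested none passed in either direction by edgeR, and Amy2b was at 0 in at least 1 library. The part of these cell types in the results was not tested. Markers of ductal, stellate, endothelial and blood cells made up at most 0.113% per cell type, and of these 1 ductal marker of 6 rose. Low glucose replicate 2 had the highest share of insulin counts of the 8 libraries (22.7%), followed by high glucose replicate 2 (21.7%). Without low glucose replicate 2, 5132 genes passed by edgeR, against 3854 with all 8 libraries and 3015 to 3247 without any other 1. Results that move without low glucose replicate 2 are given both ways. In bulk islets, fewer cells of a type and less RNA per cell cannot be told apart.

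The promoters of the 3 genes that rose are shown because sugar-responsive transcription is read through DNA elements near the start of the gene. All 8 genes had a promoter in RefSeq (GRCm38.p6), and the 250 bases before the start were searched on both strands for the E-box CACGTG, the carbohydrate response element, the CCAAT box and the antioxidant response core TGACNNNGC. A looser pair of incomplete E-boxes, CACGNGNNNNNCACGNG, was added after the sequences had been read. Capitals mark every match to one of these. The regions are chr3:96557707-96557956 on the plus strand for Txnip, chr7:68749239-68749488 on the minus strand for Arrdc4 and chr4:57956412-57956661 on the minus strand for Txn1, each written in the direction of transcription.
Txnip: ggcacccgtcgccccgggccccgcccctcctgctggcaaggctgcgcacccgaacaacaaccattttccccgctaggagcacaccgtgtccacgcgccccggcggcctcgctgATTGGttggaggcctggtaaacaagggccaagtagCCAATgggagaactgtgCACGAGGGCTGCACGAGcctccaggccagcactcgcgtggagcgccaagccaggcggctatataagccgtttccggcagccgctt
Arrdc4: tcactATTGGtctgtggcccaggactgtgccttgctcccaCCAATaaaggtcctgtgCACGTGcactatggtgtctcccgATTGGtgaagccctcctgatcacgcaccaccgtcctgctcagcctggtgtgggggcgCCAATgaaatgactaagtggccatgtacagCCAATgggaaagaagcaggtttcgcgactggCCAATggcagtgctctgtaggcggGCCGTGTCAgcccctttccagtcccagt
Txn1: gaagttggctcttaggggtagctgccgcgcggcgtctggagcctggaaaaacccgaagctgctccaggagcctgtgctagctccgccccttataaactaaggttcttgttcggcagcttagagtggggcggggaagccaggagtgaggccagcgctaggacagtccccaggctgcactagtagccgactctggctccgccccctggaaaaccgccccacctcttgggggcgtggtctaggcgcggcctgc

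The Txnip promoter held the added pair at positions -85 to -69 from the start. Of 32851 RefSeq promoters of this length, 15 (0.0457%) held this pair. The pair was chosen after this sequence had been read, so its match here was fixed in advance and the share is no test. The Txnip promoter also held a CCAAT box on the minus strand at -137 to -133 and another on the plus strand at -102 to -98. It had no match to the intact E-box. At least 1 CCAAT box was found in 33.8% of promoters. The Arrdc4 promoter held an E-box at -193 to -188, which 6.02% of promoters had. It also held 6 CCAAT boxes, where 0.840% of promoters had 4 or more, and an antioxidant response core at -28 to -20 (10.2% of promoters). No motif overlapped another in these windows. The Txn1 promoter held no match to any of the 5. Arrdc2, which did not pass, had 3 CCAAT boxes, where 2.79% of promoters had 3 or more. Txn2 had 1, and neither had an E-box. Arrdc1 had no match. The table lists 3 promoters each for Arrdc3 and Txnrd1, of which the second of Txnrd1 held an antioxidant response core and a CCAAT box, and the first and second of Arrdc3 a CCAAT box each. The carbohydrate response element as first searched was found in 0.0974% of all promoters and in none of those of the 8 genes. The added pair in the Txnip promoter did not match that first pattern. The missing match therefore does not show that Txnip lacks a carbohydrate response element. Whether the added pair acts as such an element was not tested.

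Txnip showed the largest increase among the 8 genes. The gene (ENSMUSG00000038393) lies on chromosome 3 of GRCm38, from 96557957 to 96561883. Its level was 1106, 892, 1039 and 994 CPM (counts relative to the library total, scaled by the trimmed mean of M values, TMM) in high glucose replicates 1 to 4, against 203, 171, 155 and 194.5 CPM in low glucose replicates 1 to 4. The lowest high glucose library was thus far above the highest low glucose library. High glucose averaged 1008 ± 89.9 CPM and low glucose 181 ± 21.9 CPM (SD, n = 4 each). The rise was 5.57-fold (95% interval 4.70 to 6.59), a log2 fold change of 2.48 ± 0.11 (SE) with edgeR adjusted p = 8.60e-07. Of 15442 genes tested, 62, Txnip included, had a log2 fold change at least as large, which is 0.402% of them. By mean FPKM (the authors' values, scaled for gene length and depth), Txnip ranked 75 of 27534 genes in high glucose and 570 in low glucose.

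Reads from the antisense gene Gm15441 could touch these counts, because it shares 606 of the 3123 exonic bases of Txnip (19.4%) and the strand setting of the counting is not given. Gm15441 itself had 41, 30, 47 and 47 counts in high glucose replicates 1 to 4, against 18, 32, 13 and 22 in low glucose replicates 1 to 4, so the groups overlapped. Its log2 fold change was 0.93 ± 0.33 (SE) with edgeR adjusted p = 0.0674. None of the other 7 genes shared exonic bases with an overlapping gene in GENCODE M21.

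Arrdc4, the closest relative of TXNIP, which also acts on glucose transporters but is not known to inhibit thioredoxin, rose as well. The gene (ENSMUSG00000042659) lies on chromosome 7 from 68736995 to 68749241. It was at 64.1, 52.1, 55.8 and 46.5 CPM in high glucose replicates 1 to 4, against 15.7, 14.8, 14.6 and 14.98 CPM in low glucose replicates 1 to 4. The groups did not overlap, and the low glucose libraries lay closer together, with a coefficient of variation of 13.5% in high and 3.26% in low glucose. The rise was 3.63-fold (95% interval 3.12 to 4.23), a log2 fold change of 1.86 ± 0.10 (SE) with edgeR adjusted p = 2.38e-06. A log2 fold change at least as large was seen in 170 genes, Arrdc4 included, or 1.10% of those tested. Both Txnip and Arrdc4 rose more than 2-fold, which 3.46% of all genes did by the same test.

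The other α-arrestins did not pass the test. Arrdc3, known as an adaptor in the trafficking of membrane receptors, was at 41.3, 37.4, 43.0 and 40.8 CPM in high glucose replicates 1 to 4, against 39.5, 38.2, 38.2 and 40.7 CPM in low glucose replicates 1 to 4. The groups overlapped, and the ratio was 1.04 with a 95% interval of 0.938 to 1.15 (edgeR adjusted p = 0.598). Its sign was negative with library size alone as scaling, where the log2 fold change was -0.027.

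Arrdc1, which drives the budding of vesicles from the plasma membrane, was at 20.0, 18.0, 14.8 and 17.2 CPM in high glucose replicates 1 to 4, against 20.7, 22.8, 18.9 and 17.8 CPM in low glucose replicates 1 to 4. High glucose lay below low glucose in each of the 4 same-number pairs, but the groups overlapped, with a log2 fold change of -0.20 ± 0.11 (SE) and edgeR adjusted p = 0.243. Arrdc2 was at 5.77, 4.57, 6.6 and 6.11 CPM in high glucose replicates 1 to 4, against 7.35, 6.43, 7.57 and 6.00 CPM in low glucose replicates 1 to 4. These groups overlapped too, with a log2 fold change of -0.25 ± 0.15 (SE) and edgeR adjusted p = 0.279. The 95% intervals of both ratios, 0.732 to 1.04 for Arrdc1 and 0.667 to 1.07 for Arrdc2, exclude rises of the size seen for Txnip and Arrdc4.

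**Figure D1:**
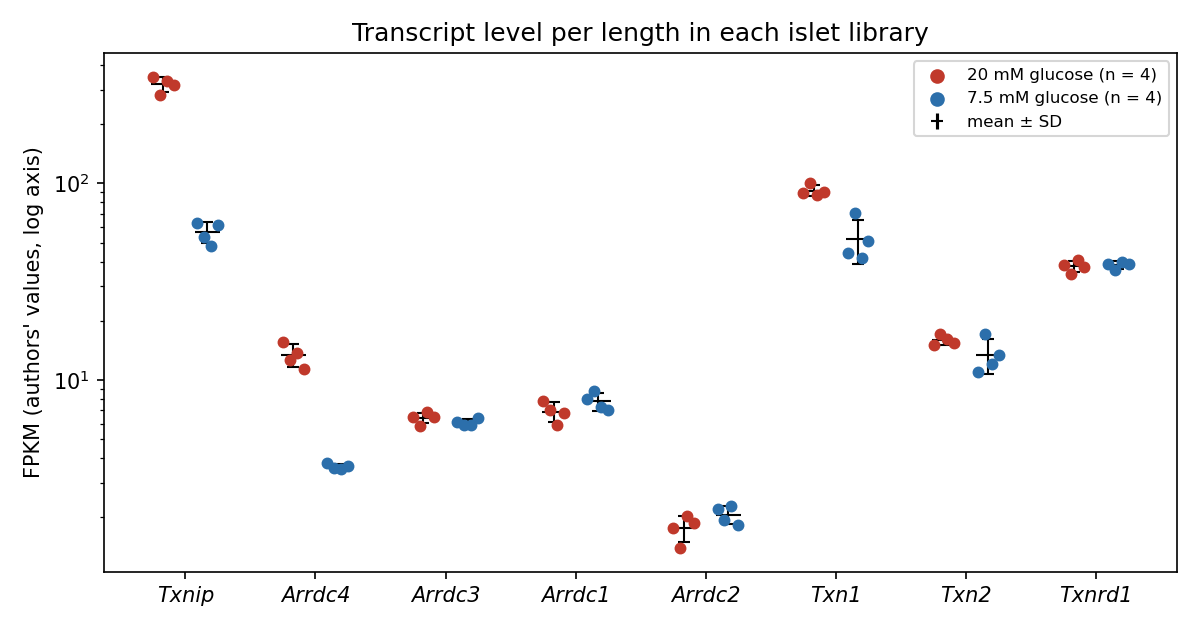
Level of each gene as deposited FPKM (log axis) in the 4 libraries of 20 mM glucose (red) and the 4 of 7.5 mM glucose (blue), with mean and SD in black. Txnip and Arrdc4 stand clear of their low glucose libraries, Txn1 is higher in high glucose without overlap, and the points of the other 5 overlap between the groups.

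Among the thioredoxins, the cytosolic form rose. Txn1 (ENSMUSG00000028367, chromosome 4, 57943373 to 57956411) was at 94.6, 107, 91.7 and 96.4 CPM in high glucose replicates 1 to 4, against 48.1, 76.3, 45.0 and 54.1 CPM in low glucose replicates 1 to 4. Every high glucose library was above every low glucose library, although low glucose replicate 2 lay well above the other 3 of its group. Means were 97.5 ± 6.76 CPM at 20 mM and 55.9 ± 14.1 CPM at 7.5 mM glucose (SD, n = 4 each). The rise was 1.75-fold (95% interval 1.39 to 2.19), a log2 fold change of 0.80 ± 0.15 (SE) with edgeR adjusted p = 0.00276. In the same-number pairs the fold was 1.97, 1.41, 2.04 and 1.78, so the pair of replicates 2 showed the smallest difference. A pseudogene, Txn-ps1, is at least 90% identical over 300 bases, so reads could be split between them.

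Txn2, the mitochondrial thioredoxin, was at 64.6, 73.3, 68.1 and 65.8 CPM in high glucose replicates 1 to 4, against 47.9, 74.4, 52.2 and 57.0 CPM in low glucose replicates 1 to 4. Low glucose replicate 2 was above all 4 high glucose libraries, while the other 3 low glucose libraries were below all of them. The log2 fold change of 0.23 ± 0.12 (SE) did not pass (edgeR adjusted p = 0.203). It passed with the replicate number as a block (0.25, adjusted p = 0.0203) and without low glucose replicate 2 (0.38, adjusted p = 0.00375). With both libraries numbered 2 left out, a choice made after the data were seen, it was 0.34 with adjusted p = 0.00488.

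Txnrd1, the cytosolic selenoprotein that reduces thioredoxin, was at 275, 251, 290 and 270 CPM in high glucose replicates 1 to 4, against 285, 263, 290 and 281 CPM in low glucose replicates 1 to 4. The groups overlapped and both were narrow, with coefficients of variation of 5.94% in high and 4.19% in low glucose. High glucose lay below low glucose in each of the 4 same-number pairs, with folds of 0.953 to 0.998. The ratio of the groups was 0.971 with a 95% interval of 0.869 to 1.08 (edgeR adjusted p = 0.708).

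In all, 3 of the 8 genes rose and none fell, where 25.0% of all genes tested passed by the same rule, 13.1% higher and 11.9% lower. At an unadjusted edgeR p under 0.05 none of the 8 was lower, and none was called lower by DESeq2 or by limma-voom. The same 3 were those whose groups did not overlap, a pattern that 27.3% of all genes tested had in either direction and 13.7% with high glucose above. The median log2 fold change was 0.14 over the 8 genes and -0.01 over all genes. With library size alone, 37.8% of all called genes were higher, against 52.5% with the scaling used here. With the replicate block 4 of the 8 rose, where 18.9% of all genes rose and 37.4% changed in either direction. In the authors' deposited table, the log2 fold changes are 2.48 for Txnip, 1.87 for Arrdc4, 0.81 for Txn1 and 0.24 for Txn2, and the adjusted p of the last is 0.196.

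**Figure D2:**
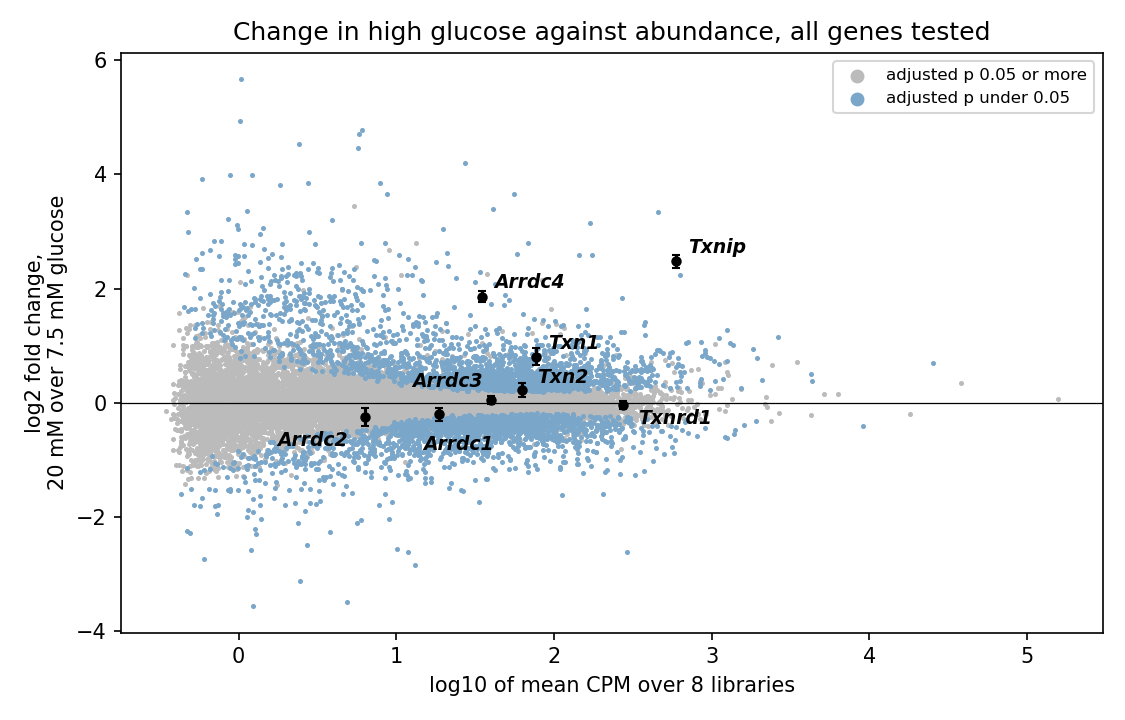
Change in 20 mM over 7.5 mM glucose (log2 fold change) against mean abundance (log10 of CPM) for 15442 genes, those with adjusted p under 0.05 in blue, and the 8 genes in black with SE. Txnip at 2.48, Arrdc4 at 1.86 and Txn1 at 0.80 lie above the bulk of genes, and the other 5 lie between -0.25 and 0.23.

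Per listed gene length, the order of the genes differed between the groups. The listed length is 7086 bases for Txnrd1 and 4208 for Txn2, against 3622 and 2049 in their longest coding transcripts. For Txnip it is 3123 against 2827, and for Txn1 it is 1051 in both. The order between genes therefore depends on the length used, while the change of a gene between the groups does not. In high glucose the mean FPKM was 319 ± 29.3 for Txnip, 91.8 ± 5.88 for Txn1, 37.9 ± 2.48 for Txnrd1, 16.0 ± 0.875 for Txn2, 13.4 ± 1.81 for Arrdc4, 6.90 ± 0.817 for Arrdc1, 6.42 ± 0.410 for Arrdc3 and 1.77 ± 0.274 for Arrdc2 (SD, n = 4). Among neighbours in this order, the libraries overlapped between Txn2 and Arrdc4 and between Arrdc1 and Arrdc3. In low glucose it was 56.5 ± 6.98 for Txnip, 51.9 ± 13.04 for Txn1, 38.5 ± 1.67 for Txnrd1, 13.4 ± 2.68 for Txn2, 7.79 ± 0.811 for Arrdc1, 6.09 ± 0.227 for Arrdc3, 3.63 ± 0.116 for Arrdc4 and 2.06 ± 0.215 for Arrdc2 (SD, n = 4). Here Txnip and Txn1 overlapped and no other neighbours did. Arrdc4 thus ranked 5 of 8 in high glucose, above Arrdc1 and Arrdc3, and 7 of 8 in low glucose, below both.

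Txnip supplied most of the α-arrestin transcript in both groups. Of the summed FPKM of the 5 α-arrestins, Txnip made up 91.7%, 91.2%, 92.1% and 92.2% in high glucose replicates 1 to 4, against 75.8%, 72.5%, 71.7% and 76.5% in low glucose replicates 1 to 4. The share of Arrdc4 was 3.33% to 4.12% at 20 mM and 4.54% to 5.24% at 7.5 mM glucose, lower at 20 mM although the gene itself rose. The sum over the 5 was 348 ± 31.2 FPKM in high and 76.1 ± 7.13 FPKM in low glucose (SD, n = 4 each).

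Ratios inside a library do not depend on how libraries are scaled, and Txnip was compared in this way with each of the other 7 genes, per length. The size of a ratio depends on the listed gene lengths, but its fold difference between the groups does not. The transcript of the inhibitor relative to that of its target, Txnip over Txn1, was 3.93, 2.80, 3.81 and 3.47 in high glucose replicates 1 to 4, against 1.42, 0.756, 1.16 and 1.21 in low glucose replicates 1 to 4. Every high glucose library was above every low glucose library, and in low glucose replicate 2 alone Txn1 exceeded Txnip. The ratio was 3.14-fold higher in high glucose, so the rise of Txn1 was smaller than that of Txnip.

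Txnip over Txn2 was 20.1 ± 2.76 in high and 4.35 ± 1.09 in low glucose, and Txnip over Txnrd1 was 8.42 ± 0.477 in high and 1.47 ± 0.183 in low glucose (SD, n = 4 each). Txnip over Arrdc4 differed least, at 22.3, 22.1, 24.1 and 27.7 in high glucose replicates 1 to 4, against 16.7, 15.004, 13.7 and 16.8 in low glucose replicates 1 to 4. These did not overlap either, so that Arrdc4 rose by less than Txnip, by a factor of 1.55. The ratios to Arrdc1, Arrdc2 and Arrdc3 were 6.41, 6.66 and 5.38 times higher in high glucose. For each of the 7 ratios the exact permutation test over the 8 libraries gave p = 0.0286 (two-sided), the smallest value that this design allows, and 0.0286 also after adjustment over the 7. All 7 share Txnip, whose groups did not overlap, so they are not 7 separate results. With labels exchanged only within same-number pairs, the permutation p was 0.125 for each ratio, the smallest value that 4 pairs allow.

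**Figure D3:**
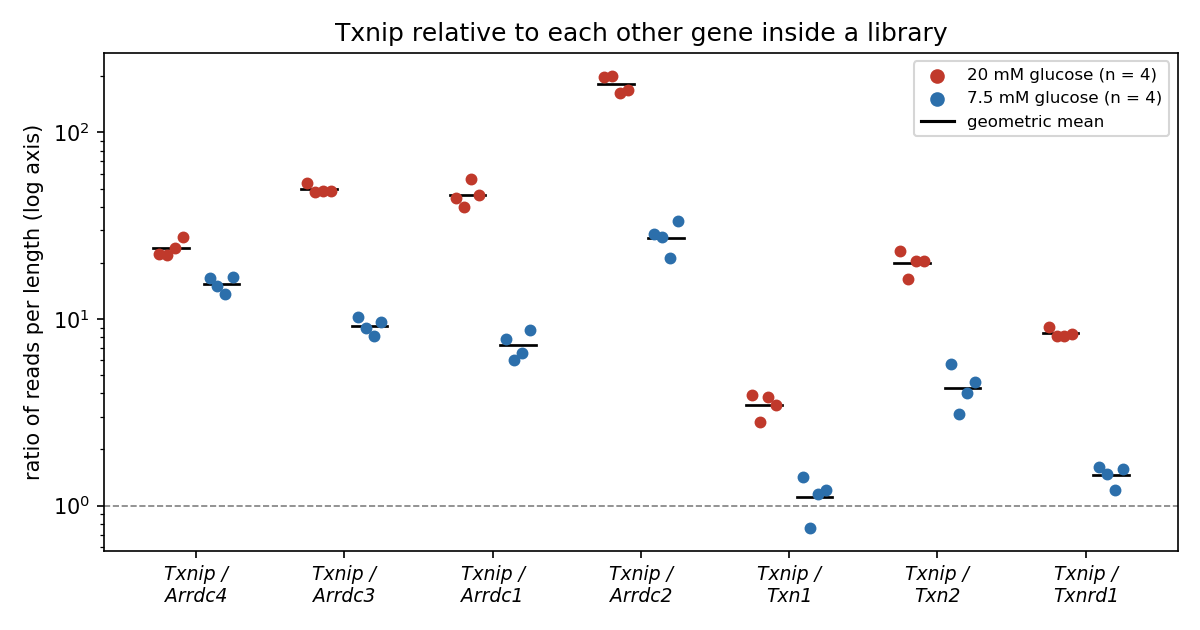
Ratio of Txnip reads per length to those of each other gene inside each library (log axis), 20 mM glucose in red and 7.5 mM glucose in blue, with the geometric mean as a bar and a dashed line at equality. All 7 pairs of groups are apart, least for Arrdc4 (1.55-fold) and most for Arrdc2 (6.66-fold), and 1 low glucose library lies below equality with Txn1.

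The genes whose profile was most like that of Txnip were found by the root mean square difference between log2 CPM profiles over the 8 libraries, each centred on its own mean, among 10537 other protein-coding genes with a mean of at least 5 CPM. The nearest were Apcdd1, an inhibitor of WNT signalling, at 0.14 on the log2 scale, Shc4, an adaptor of receptor tyrosine kinases, at 0.15, Fkbp11, a prolyl isomerase of the secretory pathway, at 0.19, Top2a, the topoisomerase of dividing cells, at 0.21, and Dclk1, a microtubule-associated kinase, at 0.21. Arrdc4 ranked 20 by this measure (0.34), Txn1 337 and Txn2 2224. The measure favours genes with a fold near that of Txnip, and these 5 rose 4.55-fold to 6.08-fold.

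The wider thioredoxin system moved in both directions. Of 36 genes listed (other thioredoxin-like proteins and reductases, glutaredoxins, peroxiredoxins, methionine sulfoxide reductases and ribonucleotide reductase), 33 were tested, of which 8 rose and 4 fell (24.2% and 12.1%, against 13.1% and 11.9% of all genes). The median log2 fold change was 0.15. Txndc2 was below the filter on low counts, and Txndc8 and Nme8 were not analysed here. Of the 12 that passed, Prdx4 (0.80, edgeR adjusted p = 0.00724) and Txnrd3 (-0.92, edgeR adjusted p = 0.00259), named after their values were seen, changed in opposite directions.

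Srxn1, the sulfiredoxin that repairs overoxidised peroxiredoxins, was at 152, 170, 164 and 154 CPM in high glucose replicates 1 to 4, against 90.04, 92.0, 93.3 and 99.1 CPM in low glucose replicates 1 to 4, a 1.71-fold rise without overlap (edgeR adjusted p = 3.33e-05). Ribonucleotide reductase, which makes deoxyribonucleotides with electrons from thioredoxin, was split by subunit. Rrm2, the small subunit of dividing cells, was at 12.8 ± 2.82 CPM at 20 mM and 4.17 ± 0.819 CPM at 7.5 mM glucose (3.07-fold, edgeR adjusted p = 0.000184; SD, n = 4 each). Rrm1, the large subunit, was at 39.6 ± 2.60 CPM at 20 mM and 22.5 ± 2.82 CPM at 7.5 mM glucose (1.76-fold, edgeR adjusted p = 0.000187). Rrm2b, the small subunit induced by p53, fell to 49.4 ± 4.77 CPM at 20 mM glucose, against 71.1 ± 2.45 CPM at 7.5 mM (log2 fold change -0.53, edgeR adjusted p = 0.000813).

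Txndc16, a thioredoxin-domain protein of the endoplasmic reticulum, fell to 25.2 ± 1.52 CPM at 20 mM glucose, against 45.0 ± 2.19 CPM at 7.5 mM, a log2 fold change of -0.84 with edgeR adjusted p = 2.69e-05. Prdx1, a thioredoxin-dependent peroxidase and the most abundant of the list per length, was at 272 ± 17.7 CPM at 20 mM and 213 ± 44.4 CPM at 7.5 mM glucose, and did not pass (edgeR adjusted p = 0.0718). It passed with DESeq2 (adjusted p = 0.0246), with the replicate block (0.00146) and without low glucose replicate 2 (0.00051). The count of 8 that rose was 13 with the block (18.9% of all genes rose in that fit), 17 when low glucose replicate 2 was left out (16.8% of all genes), and 5 when high glucose replicate 1 or 3 or low glucose replicate 1, 3 or 4 was left out (10.2% to 10.7% of all genes). With library size alone 6 rose and 6 fell, as did 10.4% and 17.1% of all genes.

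Among 20 listed partners of the α-arrestins (other arrestins, ubiquitin ligases of the NEDD4 type and their adaptors, ESCRT proteins and cargo), 17 were tested, of which 3 fell and 1 rose (17.6% and 5.88%, against 11.9% and 13.1% of all genes). All 3 that fell were ubiquitin ligases. Nedd4l fell to 37.0 ± 2.15 CPM at 20 mM glucose, against 51.9 ± 5.93 CPM at 7.5 mM (log2 fold change -0.49, edgeR adjusted p = 0.00291; SD, n = 4 each). Wwp2 was at 43.9 ± 3.32 CPM at 20 mM and 55.5 ± 2.26 CPM at 7.5 mM glucose (-0.34, edgeR adjusted p = 0.0058), and Smurf2 at 53.0 ± 2.14 and 61.3 ± 2.78 CPM (-0.21, edgeR adjusted p = 0.0329). The other 4 ligases tested, Itch, Nedd4, Wwp1 and Smurf1, had log2 fold changes of 0.0036 to 0.061 and did not pass. They are named here after their values were seen.

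The gene that rose was Ndfip2, an adaptor that activates these ligases, at 84.8 ± 2.47 CPM at 20 mM and 73.3 ± 3.68 CPM at 7.5 mM glucose (1.16-fold, edgeR adjusted p = 0.0324). Ndfip1, the related adaptor and the most abundant of the list per length, had a log2 fold change of 0.07 (edgeR adjusted p = 0.594). The median of the list was 0.06. Arr3 was below the filter, and Arrdc5 was not analysed here. Without any 1 library other than low glucose replicate 2 none rose, and Ndfip2 had adjusted p of 0.0535 to 0.0996. The count was 2 with the block (18.9% of all genes rose) and without low glucose replicate 2 (16.8%). Smurf2 did not pass without high glucose replicate 1, 2 or 3 or low glucose replicate 1, 3 or 4 (adjusted p 0.072 to 0.0973). With no filter on low counts neither Smurf2 (adjusted p = 0.0955) nor Ndfip2 (0.0872) passed, so that 2 fell and none rose. Of the 27534 genes in that fit 5.63% fell and 6.72% rose. With library size alone none rose and 4 fell (10.4% and 17.1% of all genes).

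Of 22 listed regulators and partners of TXNIP, 20 were tested, of which 4 rose and 4 fell (20.0% each, against 13.1% and 11.9% of all genes), with a median of -0.08. Of the sugar-sensing factors, Mlxipl fell, Mlx rose and Mlxip did not pass. Mlxipl, which encodes ChREBP, was at 119, 137, 148 and 134 CPM in high glucose replicates 1 to 4, against 352, 218, 368 and 270 CPM in low glucose replicates 1 to 4. Every high glucose library was below every low glucose library, and the log2 fold change was -1.17 ± 0.15 (SE, edgeR adjusted p = 0.000399), opposite in sign to Txnip. Mlx, the partner with which ChREBP and MondoA bind DNA, rose 1.31-fold, at 43.2 ± 2.46 CPM at 20 mM and 33.0 ± 3.98 CPM at 7.5 mM glucose (edgeR adjusted p = 0.00991; SD, n = 4 each). Mlxip, which encodes MondoA and is named here after its value was seen, had a log2 fold change of -0.21 ± 0.15 (SE, edgeR adjusted p = 0.343), and -0.35 with adjusted p = 0.0117 without low glucose replicate 2.

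Jak1, a cytokine receptor kinase, was at 168 ± 10.9 CPM at 20 mM and 269 ± 16.4 CPM at 7.5 mM glucose (-0.68, edgeR adjusted p = 0.000152). Foxo1, a transcription factor restrained by insulin signalling, had a log2 fold change of -0.39 (edgeR adjusted p = 0.00303). Prkaa1, a catalytic subunit of AMPK, the kinase that marks TXNIP for degradation, was at 87.9 ± 0.414 CPM at 20 mM and 109 ± 4.88 CPM at 7.5 mM glucose (-0.31, edgeR adjusted p = 0.00386).

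Ddit4, a stress-induced inhibitor of mTORC1 and the most abundant of the list per length, rose 1.26-fold (edgeR adjusted p = 0.0109, and 0.0581 with library size alone). The other 2 that rose, named after their values were seen, were Slc2a1, which encodes the glucose transporter GLUT1 that TXNIP removes from the cell surface (1.60-fold, edgeR adjusted p = 0.0114), and Keap1 (1.16-fold, edgeR adjusted p = 0.0343). Keap1 did not pass without high glucose replicate 1, 3 or 4 or low glucose replicate 1, 3 or 4 (adjusted p 0.074 to 0.104), with library size alone (0.141) or with no filter on low counts (0.091). The count that fell was 7 with the block (18.5% of all genes fell in that fit) and without low glucose replicate 2 (15.6%), and with library size alone 2 rose and 6 fell (10.4% and 17.1% of all genes). Nlrp3 and Slc2a4 were below the filter, with at most 14 and 8 counts in any library.

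**Figure D4:**
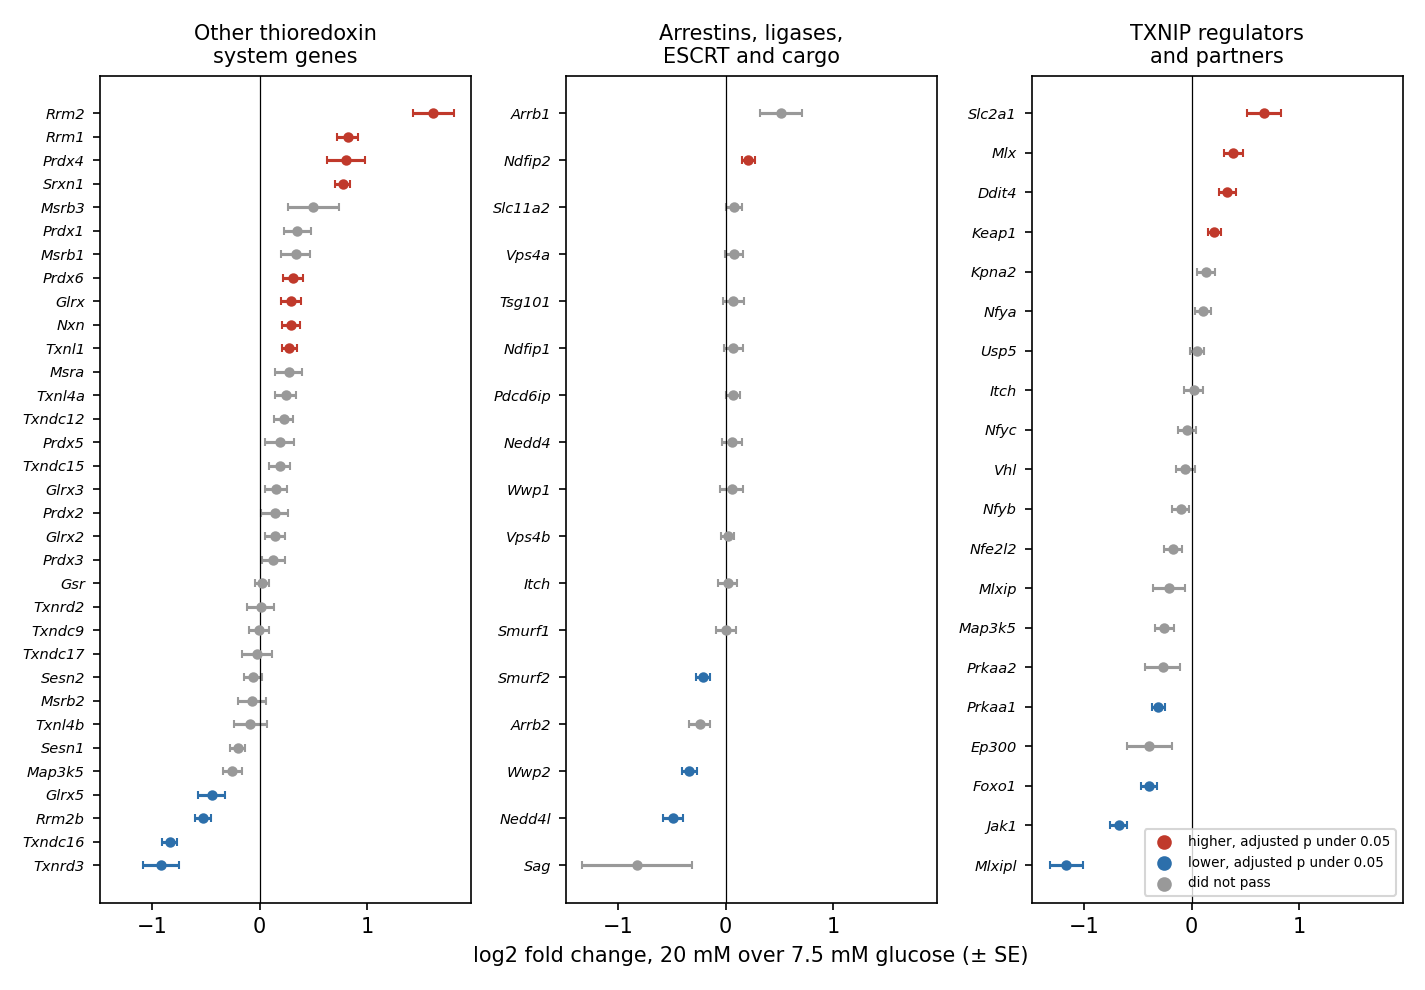
Log2 fold change, 20 mM over 7.5 mM glucose, with SE, of each tested gene of the 3 lists, red where higher and blue where lower at an adjusted p under 0.05 and grey where it did not pass. Rrm2 at 1.62 and Mlxipl at -1.17 lie farthest from 0 among those that passed, and most of the arrestin partners lie near 0.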

How the data were processed

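RNA was extracted with an RNeasy micro kit and sequenced from NEBNext Ultra libraries, per the labels' protocols. The submitters' processing notes name STAR 2.5, HTSeq 2, DESeq2 and the build mm10 (GRCm38). How strand and multi-mapped reads were handled, and the annotation release, were not given in the sources used. Per the file headers, the deposited table holds the authors' raw read count per gene and library. The FPKM deposited by the authors, so named in the file headers, equals on recomputation the count divided by the listed gene length and by 1 scaled total per library. The signal deposited by the authors, per the file headers a normalized count, is that count over 1 size factor for each library and was not used. The deposited log2 fold change, p-value and adjusted p are the authors' own comparison.

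The test was edgeR 4.0.16 under R 4.3.3 (quasi-likelihood, TMM scaling, filterByExpr with minimum count 10 and minimum total 15, Benjamini-Hochberg over the 15442 genes tested, threshold 0.05), with the glucose group as the only term over all 8 libraries. The SE of a log2 fold change is its size over the root of F, and 95% intervals use the fit's degrees of freedom. Log2 CPM used a prior count of 2. DESeq2 1.42.0 and limma 3.58.1 (voom) were alternatives, as were library size alone, RLE size factors, no filter, the replicate block and leaving out each library. These depths put 3 counts at 0.120 to 0.154 CPM, which covers counting error only. The tests were checked on simulated counts. The closest pair of libraries had a chi-square of 12.9 per gene, so none was a copy of another. Each group is numbered 1 to 4 in the labels, which do not say what the numbers mark. Deviations from the group means correlated between same-numbered libraries at 0.101 to 0.475, and between other pairs at -0.367 to 0.207. The numbers were therefore taken to pair the libraries, on the evidence of the data and not of the labels. That evidence is weak for replicate 1, where 0.101 lies below the 0.207 between high glucose replicate 4 and low glucose replicate 1. Neither the main fit nor the permutation test used the pairing.

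The 8 genes are named whatever their result. From each list, up to 4 passing genes with the smallest adjusted p, up to 2 passing in the other direction and the most abundant gene are named, and any other gene was named after its values were seen. The genes and lists were chosen with earlier results of these data known. Itch and Map3k5 stand in 2 lists, and 1 listed arrestin partner is not reported here. Near-identical transcripts were sought with blastn 2.17.0 in GENCODE M21 (at least 90% identity over 300 bases): only Txn1 had one, Txn-ps1, which is not used here.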

Additional observations from a re-analysis of the deposited data

How the results depend on the processing

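Txnip, Arrdc4 and Txn1 kept their direction and call under every alternative run, with log2 fold changes of 2.40 to 2.54, 1.77 to 1.93 and 0.71 to 0.99 when 1 library was left out. The block changed the call of Txn2 and of no other of the 8. Under the replicate block Txn2 had 0.25 (it passed), 13 thioredoxin system genes and 2 arrestin partners were higher, and 7 TXNIP regulators were lower. Of all genes, 18.9% were higher with the block and 18.5% (2862) lower. With both libraries numbered 2 left out, chosen after seeing the data, Txn2 had 0.34. In that fit 17 thioredoxin system genes and 2 partners were higher and 7 regulators lower, where 16.4% of all genes were higher and 15.8% lower. With library size alone Arrdc3 had -0.027, and no partner and 2 regulators were higher (10.4% of all genes). With no filter no partner was higher (6.72% of all genes). Leaving out 1 library gave 0.15 to 0.38 for Txn2, 5 to 17 thioredoxin system genes higher, 0 to 2 partners higher and 4 to 7 regulators lower. Across these fits 10.2% to 16.8% of all genes were higher and 8.77% to 15.6% lower. The cause of these shifts was not tested. Paired or reduced permutation designs are too small to reach the threshold, so those ratios were judged by value. Depth limits Arrdc2 most, at 88 to 194 counts a library.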

Other observations

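The looser pair of incomplete E-boxes found before Txnip stands in the promoters of 14 genes, 9 of which were tested. Of these 9, 1 rose and 1 fell, where 25.0% of all genes tested passed in either direction. The 1 that rose was Txnip itself, from whose sequence the motif was taken, so its place among the 9 was fixed in advance. Besides Txnip, Fnip1, which encodes a partner of the tumour suppressor folliculin, passed, and it was lower in high glucose, with means of 71.0 CPM at 20 mM and 105 CPM at 7.5 mM glucose (log2 fold change -0.57 ± 0.10 SE, edgeR adjusted p = 0.0021). The other 7 that were tested did not pass, among them Man2b2, a lysosomal mannosidase, at 116 CPM at 20 mM and 112 CPM at 7.5 mM glucose (edgeR adjusted p = 0.709), and Nfkb2, at 18.1 and 16.99 CPM (0.59). The motif was chosen after the sequence of Txnip had been read, and these genes were named after their values were seen.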
